A study of Mus musculus with 2 samples.

Results

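The immediate early genes followed here are Fos, Fosb, Jun, Junb, Jund, Egr1, Ier2, Nr4a1, Dusp1 and Klf4. They were chosen by symbol among the 22587 gene symbols counted in hippocampal YFP+ cells, and all 10 had 1 row each in both count matrices. The cells came from CT and Opa1 cKO mice, each pooled from 3 mice into 1 library of the 10x Genomics 3′ v2 assay. The Opa1 cKO mice were Opa1-Flox;Nestin-CreERT2;ROSA26YFP, so Opa1, whose protein fuses the inner mitochondrial membrane, is deleted after tamoxifen in cells that express Nestin, which marks neural stem cells (NSCs). The control library is titled WT. Its protocol names an Opa1-Flox negative mouse, whereas its strain label is the same as that of the Opa1 cKO library. Mice were 12 weeks old and the cells were collected 4 weeks post-TAM, so every group carried the tamoxifen treatment, and Nestin-CreERT2 and ROSA26YFP by the labels. With 1 library per genotype there is no replicate, no test was possible and no p-value is given. Each value is given with an exact 95% interval that covers counting error only, not the spread between mice or sorts. For levels and ratios the interval also treats UMIs as independent, so it leaves out the spread between cells.

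Immediate early genes are transcribed within minutes of a stimulus without new protein synthesis, and their RNA is short-lived. Growth factors, calcium entry in active neurons and cellular stress all induce them, and so does the preparation of tissue for cell sorting. Here the hippocampus was digested with papain at 37 °C for 10 minutes and live cells were then sorted, in both genotypes. Fos, Fosb, Jun, Junb and Jund encode subunits of the AP-1 transcription factor, Egr1, Klf4 and Nr4a1 encode zinc finger factors (Nr4a1 being an orphan nuclear receptor), Ier2 encodes a small nuclear protein, and Dusp1 encodes a phosphatase that switches off MAP kinases. Jund is known for a more constant expression than the others, so sums are also given without it.

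Coordinates are those of GENCODE M21 on mm10. Fos is at chr12:85473890-85477273, Fosb at chr7:19302696-19310051, Nr4a1 at chr15:101254269-101274795 and Dusp1 at chr17:26505590-26562128. Jun (chr4:95049034-95052222) and Klf4 (chr4:55527143-55532466) share a chromosome, as do Junb (chr8:84974484-84978718), Jund (chr8:70698949-70700616) and Ier2 (chr8:84661331-84662852). Junb overlaps Prdx2, and Dusp1 overlaps Ergic1, each on the other strand. The other 8 members, Egr1 included, overlapped no counted gene.

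RefSeq promoter windows (GRCm38.p6, 250 bases before to 50 after the annotated start) were found for 8 of the 10 members, all but Egr1 and Ier2. The search covered both strands for TGACG, the core of the cAMP response element to which CREB binds, for the full element TGACGTCA that contains it, for the AP-1 motif TGANTCA, for TATAAA and for the CArG box bound by serum response factor. TGACG was present in 6 of the 8 windows, and in 20.8% of all 32851 windows. The full element was present only in that of Dusp1 among the 8, and in 1.79% of all windows. TATAAA was found for Fos and Junb, against 13.6% of all windows. No window of the 8 held TGANTCA, which 7.81% of all windows held, or a CArG box, which 1.63% held. Only exact matches inside these short windows were sought, so sites further away or with a differing base would be missed. The windows of 4 members are printed 5′ to 3′ on the gene's strand, with each TGACG, read on either strand, and the full element in capitals. Junb and Dusp1 are shown beside Fos because each was found more often in NSC pool-like cells with a Fos UMI than in those without. Jun was too, but its window, which held no TGACG, is not printed. Nr4a1 is shown because its level differed most between the libraries in NSC pool-like cells. The windows are chr12:85473640-85473939 on the plus strand for Fos, chr8:84978699-84978998 on the minus strand for Junb, chr17:26508423-26508722 on the minus strand for Dusp1 and chr15:101266596-101266895 on the plus strand for Nr4a1. The last 2 lie inside the GENCODE genes, downstream of their outer 5′ ends.
Fos: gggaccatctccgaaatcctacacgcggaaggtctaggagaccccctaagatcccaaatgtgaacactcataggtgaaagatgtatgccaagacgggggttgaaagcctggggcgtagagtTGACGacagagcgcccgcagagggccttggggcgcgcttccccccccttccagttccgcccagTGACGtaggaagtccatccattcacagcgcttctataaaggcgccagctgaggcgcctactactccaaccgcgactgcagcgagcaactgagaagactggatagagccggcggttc
Junb: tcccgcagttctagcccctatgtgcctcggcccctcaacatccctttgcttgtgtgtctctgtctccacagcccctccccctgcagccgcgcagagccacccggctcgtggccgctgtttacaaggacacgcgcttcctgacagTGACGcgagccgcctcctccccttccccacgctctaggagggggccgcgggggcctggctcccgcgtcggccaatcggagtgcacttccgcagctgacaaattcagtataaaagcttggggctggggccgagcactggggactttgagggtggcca
Dusp1: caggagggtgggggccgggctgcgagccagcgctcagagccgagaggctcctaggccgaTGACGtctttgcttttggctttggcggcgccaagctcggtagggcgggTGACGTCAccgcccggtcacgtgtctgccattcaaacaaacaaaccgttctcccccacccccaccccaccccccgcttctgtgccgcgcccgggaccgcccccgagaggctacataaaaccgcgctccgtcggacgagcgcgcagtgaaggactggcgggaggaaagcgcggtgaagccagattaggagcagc
Nr4a1: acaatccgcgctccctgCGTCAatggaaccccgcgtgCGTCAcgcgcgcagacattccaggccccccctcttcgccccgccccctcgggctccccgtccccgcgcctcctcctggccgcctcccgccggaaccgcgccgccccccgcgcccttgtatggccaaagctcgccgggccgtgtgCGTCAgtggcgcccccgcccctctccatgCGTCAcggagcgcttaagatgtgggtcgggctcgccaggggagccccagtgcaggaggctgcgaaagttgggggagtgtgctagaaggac

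After the limits on genes and on mitochondrial UMIs stated for the study, 4186 CT and 6121 Opa1 cKO cells remained. Of these, 1790 CT and 3764 Opa1 cKO cells had at least 1 YFP UMI and were used here, with medians of 2555 and 3008 UMIs per cell. The cell numbers stated for the study are well above those used here and lie near the numbers before the YFP step, so the set of cells is not the study's own, and the sums without the YFP step are given among the alternatives. Cells were clustered and each cluster took its name from marker genes, giving 7 classes. The largest was NSC pool-like, with 1378 CT and 2583 Opa1 cKO cells, in which Aldoc, Slc1a3 and the other NSC pool markers summed to 82800.3 and 73629 CPM, that is UMIs scaled to the same total per class and library. UMIs were counted at the 3′ end of transcripts, so CPM values were not divided by gene length. The CT cells of this class lay almost all in 1 cluster (1374 cells), whereas 1791 of the Opa1 cKO cells lay in a second cluster with 4 CT cells. Of the 12 NSC pool markers, 8 and 7 were at least 2-fold higher in these clusters than in the classes named first. Only 3 and 1 of the 12 were among the 50 genes of highest fold there. Genes such as Cxcl14, F3, Gjb6 and Hsd11b1 led both clusters. No list of astrocyte markers was used, so the name does not tell stem cells from astrocytes. The activated NSC-like class held 409 Opa1 cKO but only 11 CT cells, so no ratio was taken for it. Of its 10 markers, 4 were at least 2-fold higher there than in other cells. In Opa1 cKO these markers summed to 1169 CPM in the class. They stood higher in the ependymal-like class, at 1516 CPM, and in the progenitor and neuron-like class, at 2945 CPM, and lower in the remaining classes. The name thus does not show that these cells were activated stem cells. Opa1 itself was counted at 18.5 CPM in CT versus 8.13 CPM in Opa1 cKO NSC pool-like cells (70 and 69 UMIs). Opa1 was also lower in ependymal-like cells of Opa1 cKO, at 36.5 and 3.16 CPM (4 and 3 UMIs), with counting intervals that do not overlap. It was lower with overlapping intervals in progenitor and neuron-like cells (9 and 2 UMIs) and in oligodendrocyte-like cells (7 and 7 UMIs). It was not lower in mural-like cells, at 6.12 and 14.4 CPM (1 and 5 UMIs), or in endothelial-like cells, at 8.59 and 13.0 CPM (2 and 5 UMIs). Outside the NSC pool-like class, these few UMIs do not show whether Opa1 was deleted. Which part of Opa1 is floxed is not given in the sources used here, and a 3′ tag may lie outside it. The libraries shared 36 cell barcodes, 9 of them among the cells kept.

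NSC pool-like cells had the lowest summed level of the immediate early genes of any class, in both genotypes. The 10 members summed to 817 CPM in CT (95% interval 788 to 846) and 879 CPM in Opa1 cKO (859 to 899). Among classes of at least 20 cells, endothelial-like cells stood at the other end, with 6793 CPM in CT versus 7178 CPM in Opa1 cKO. In CT the order below them was mural-like at 4126 CPM, progenitor and neuron-like at 3657 CPM, oligodendrocyte-like at 1934 CPM and ependymal-like at 1899.5 CPM. Mural-like and progenitor and neuron-like cells had overlapping intervals, and so had oligodendrocyte-like and ependymal-like cells. In Opa1 cKO the order was mural-like at 6582 CPM, ependymal-like at 4138 CPM, progenitor and neuron-like at 3245 CPM, oligodendrocyte-like at 1850 CPM and activated NSC-like at 1828 CPM. Of these only oligodendrocyte-like and activated NSC-like cells overlapped. The position of ependymal-like cells was the part of the order that differed most between the libraries.

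**Figure D1:**
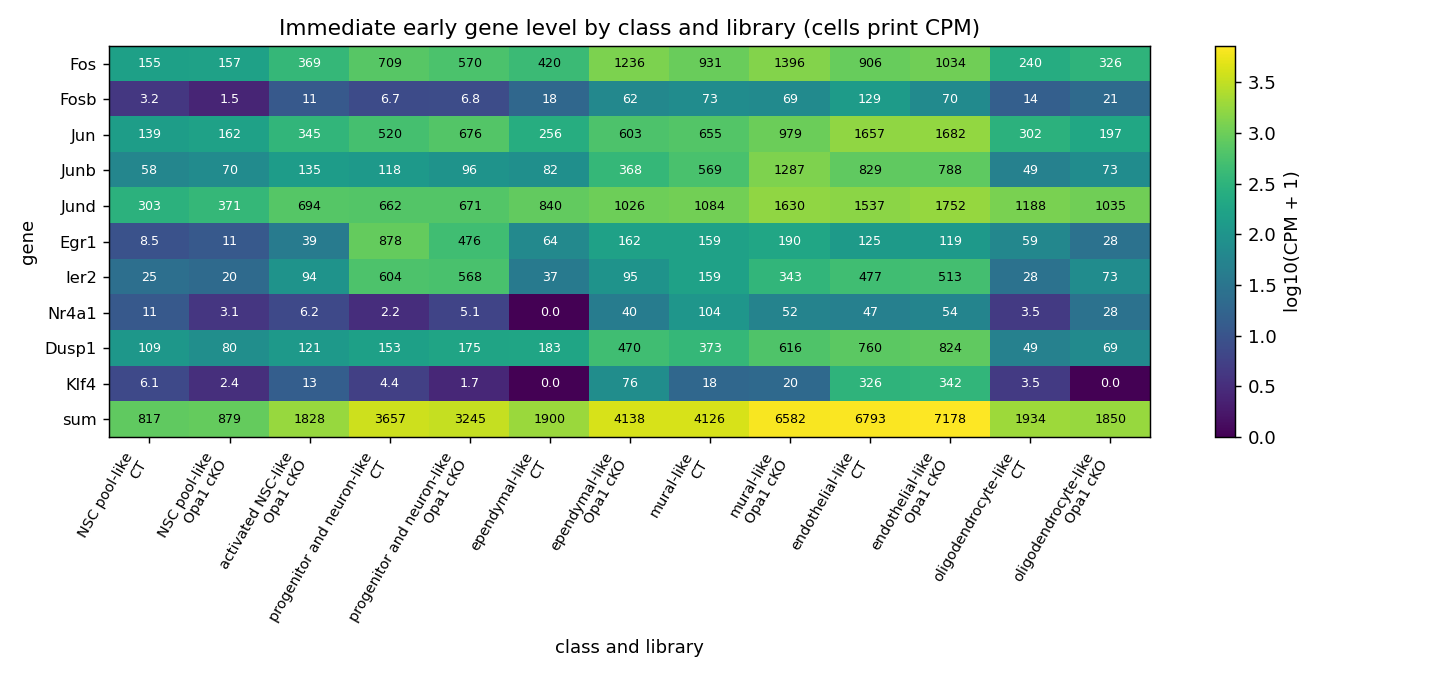
Level of each immediate early gene in CPM (printed in each cell), by class and library, with colour on a log10(CPM + 1) scale. Rows are genes and columns are a class in 1 library, and the activated NSC-like class of CT, with 11 cells, is left out. NSC pool-like cells were lowest in the sum, at 817 and 879 CPM, and endothelial-like cells highest of those drawn, at 6793 and 7178 CPM.

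The classes of at least 20 cells differed in which members made up the sum. Egr1, a marker of recent neuronal activity, was highest in progenitor and neuron-like cells, at 878 CPM in CT versus 476 CPM in Opa1 cKO, while NSC pool-like cells had 8.47 and 10.8 CPM. Ier2 was also highest there among these classes, at 604 and 568 CPM, with intervals that overlap those of endothelial-like cells, at 477 and 513 CPM. Klf4, which is induced by blood flow in endothelium, reached 326 and 342 CPM in endothelial-like cells and was at or under 75.8 CPM in the others. Junb was highest in mural-like cells of Opa1 cKO, at 1287 CPM. In oligodendrocyte-like cells most of the sum was Jund, at 1188 CPM in CT versus 1035 CPM in Opa1 cKO, whereas Junb, Ier2 and Dusp1 stayed between 27.8 and 73.5 CPM.

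In NSC pool-like cells Jun, Junb and Jund stood higher, and Nr4a1, Klf4 and Dusp1 lower, in Opa1 cKO than in CT beyond counting error. Jund, with 303 CPM in CT versus 371 CPM in Opa1 cKO, had a log2 ratio of Opa1 cKO over CT of 0.29 (0.20 to 0.39). Jun was counted at 139 and 162 CPM, a log2 ratio of 0.23 (0.08 to 0.37). Junb was counted at 57.7 and 70.3 CPM, a log2 ratio of 0.29 (0.06 to 0.52). All 3 were thus above CT beyond counting error but by far less than 2-fold. At a like share of mitochondrial UMIs this held only in part, as given further below. Fos, with 155 CPM in CT versus 157 CPM in Opa1 cKO, had a log2 ratio of 0.02 (-0.12 to 0.16).

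Nr4a1, which is induced by calcium and cAMP signals, was at 11.1 CPM in CT versus 3.06 CPM in Opa1 cKO, for a log2 ratio of -1.86 (-2.62 to -1.12). Klf4 was at 6.09 and 2.36 CPM, a log2 ratio of -1.37 (-2.31 to -0.44). Dusp1 was at 109 and 79.9 CPM, a log2 ratio of -0.45 (-0.62 to -0.27). The levels of Nr4a1 and Klf4 rest on 42 and 23 UMIs in CT and on 26 and 20 UMIs in Opa1 cKO. Fosb had 12 and 13 UMIs, a log2 ratio of -1.05 with an interval that spans 0 (-2.30 to 0.21). Egr1 at 0.36 (-0.24 to 0.98) and Ier2 at -0.28 (-0.65 to 0.10) also had intervals that span 0.

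Of the 10 members, all with at least 20 UMIs over both libraries, 3 were at least 2-fold lower in Opa1 cKO (Nr4a1, Klf4 and Fosb), beside 3.8% of 11298 genes, and 0 were at least 2-fold higher, beside 3.99%. Nr4a1, Klf4 and Fosb had the fewest UMIs of the members, and no share of genes of like depth was taken. The count thus only describes them. The median log2 ratio of the 10 members was -0.13, and that of all genes 0.03. The sum had a log2 ratio of 0.11 (0.04 to 0.17), and without Jund of -0.02 (-0.10 to 0.06). In another clustering the members, other stress genes and all mitochondrially encoded genes were kept out of the genes that formed the clusters. The sum then stood at 828 CPM in CT versus 958 CPM in Opa1 cKO, for a log2 ratio of 0.21. Which of the genes kept out moved it was not tested. With no YFP filter the log2 ratio was 0.37. Nr4a1 kept a log2 ratio between -2.15 and -1.72 over the alternatives, whereas Fos ranged from -0.04 to 0.46 and Ier2 from -0.34 to 0.53. In the class as a whole, microglia markers summed to 68.0 CPM in CT versus 128 CPM in Opa1 cKO. Erythroid markers summed to 280.3 and 8.84 CPM (1059 and 75 UMIs), although only 1 CT and 2 Opa1 cKO cells had at least 2 globin UMIs. The 5 oligodendrocyte progenitor markers summed to 107 CPM in CT versus 319 CPM in Opa1 cKO (406 and 2711 UMIs), with Pdgfra and Gpr17 at 0 in both. Their part in the values of the members was not tested. Without cells of at least 2 microglia or globin UMIs the log2 ratio of the sum was 0.10. Within the NSC pool-like class of Opa1 cKO, the cluster that CT cells also formed held 908 CPM over 792 cells and the other 866 CPM over 1791 cells.

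**Figure D2:**
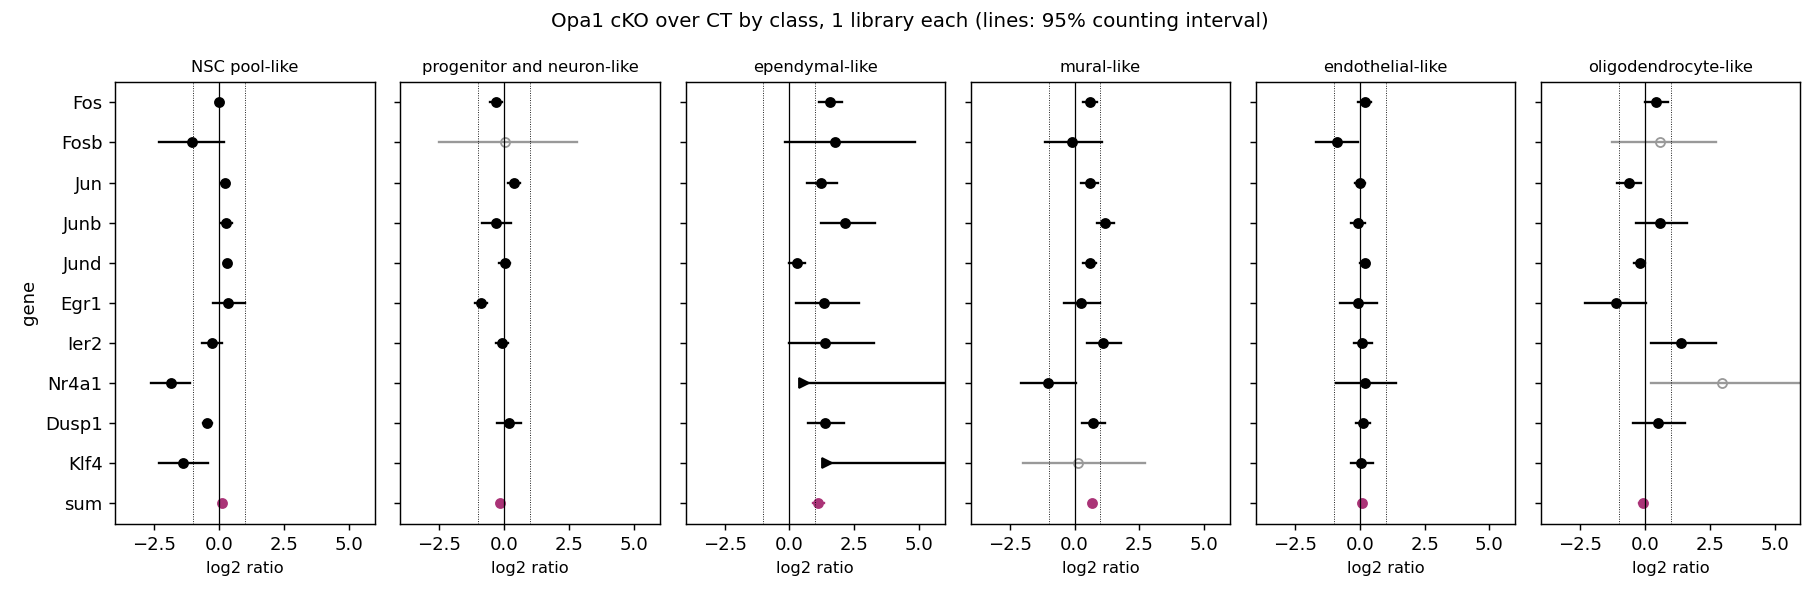
Log2 ratio of Opa1 cKO over CT for each immediate early gene and their sum, with 1 panel per class, lines for the 95% counting interval and dotted lines at 2-fold. Open grey points have under 20 UMIs, and members at or under 3 UMIs in both libraries have no point. Triangles are values against 3 counts where CT had 0 UMIs, and their lines leave out the lower part of the interval. In ependymal-like cells all 10 points of single members lie above 0, as do 7 of their intervals. In endothelial-like cells 7 of the 10 points lie above 0, and 8 of the 10 intervals reach 0.

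Ependymal-like cells, the ciliated cells that line the ventricles, showed the largest difference in the sum between genotypes among the 6 classes compared. The members summed to 1899.5 CPM over 39 CT cells and to 4138 CPM over 244 Opa1 cKO cells, for a log2 ratio of 1.12 (0.92 to 1.33). Fos was at 420.1 and 1236 CPM, a log2 ratio of 1.56 (1.13 to 2.01). Junb was at 82.2 and 368 CPM, a log2 ratio of 2.16 (1.22 to 3.30), from only 9 UMIs in CT. Jun, with 256 and 603 CPM, and Dusp1, with 183 and 470.4 CPM, had log2 ratios of 1.24 and 1.36. Jund was the exception among the abundant members, at 840.2 and 1026 CPM, a log2 ratio of 0.29 (-0.02 to 0.61).

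In this class 8 members were at least 2-fold higher in Opa1 cKO, where 12.9% of 7060 genes were, and 0 at least 2-fold lower, where 7.25% were. Of the 8, Fosb (2 CT and 59 Opa1 cKO UMIs) and Ier2 (4 and 90 UMIs) had intervals that reach below 0. These were -0.15 to 4.84 and -0.03 to 3.28. Egr1 rested on 7 CT UMIs, with an interval of 0.26 to 2.68. The class held 109502 UMIs in CT and 950219 UMIs in Opa1 cKO. Junb, Egr1, Ier2, Fosb and Klf4 had under 20 UMIs in CT and so entered the count through Opa1 cKO alone. Their place in the count thus only describes them. Klf4 had 0 UMIs in CT and 72 UMIs in Opa1 cKO. Its log2 ratio against 3 counts in CT was 1.47, and the lower limit of its interval 1.13. Nr4a1 likewise had 0 CT UMIs against 38 of Opa1 cKO. Its log2 ratio against 3 counts, 0.55, left it outside the count, and the lower limit of its interval was 0.18. The ependymal markers themselves were alike, at 17160 CPM in CT versus 17044 CPM in Opa1 cKO, and the 8 microglia markers summed to 36.5 and 62.1 CPM, with 7 of the 8 at 0 in CT and 3 in Opa1 cKO. The share of UMIs from mitochondrially encoded (mt-) genes was not alike. It was 5% to under 20% in 29 of the 39 CT cells, but under 1% in 173 of the 244 Opa1 cKO cells, and no mt- share group held 20 cells of both genotypes. Genotype and mt- share cannot be told apart in this class. Within Opa1 cKO the sum was 4187 CPM under 1% mt- and 4079 CPM at 1% to under 5%.

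Mural-like cells, the pericytes and smooth muscle of vessels, had the second largest difference. Their sum was 4126 CPM in CT (94 cells) and 6582 CPM in Opa1 cKO (169 cells), for a log2 ratio of 0.67 (0.55 to 0.80). Junb, at 569 and 1287 CPM, and Ier2, at 159 and 343 CPM, were the 2 members of 9 at least 2-fold higher, where 8.01% of 4568 genes were. Nr4a1 was at least 2-fold lower, with 104 and 51.8 CPM from 17 and 18 UMIs, where 6.11% of genes were. Among cells of 1% to under 5% mt- share alone (74 CT and 109 Opa1 cKO cells), the sum was 5054 and 6192 CPM, a log2 ratio of 0.29 (0.15 to 0.44). Junb had a log2 ratio of 0.74 (0.37 to 1.13) in that group. For the whole class the log2 ratio of the sum was 0.37 with no YFP filter and 1.21 after thinning to 1500 UMIs, which left out 53 of 94 CT cells. Markers of some other cell types were lower here in Opa1 cKO, with endothelial markers at 833 CPM in CT versus 265 CPM, microglia markers at 318 versus 130 CPM and fibroblast markers at 490 versus 250 CPM. Their part in the difference was not tested.

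Progenitor and neuron-like cells, with 139 CT and 169 Opa1 cKO cells, went slightly the other way. Their sum was 3657 and 3245 CPM, a log2 ratio of -0.17 (-0.27 to -0.08). Egr1 made the largest part of this difference, with 395 CT and 278 Opa1 cKO UMIs, for a log2 ratio of -0.88 (-1.11 to -0.66). At 1% to under 5% mt- share Egr1 was at 998 CPM in 101 CT cells and 448 CPM in 83 Opa1 cKO cells, for a log2 ratio of -1.16 (-1.46 to -0.86). Fos had a log2 ratio of -0.31 (-0.54 to -0.09) and Jun of 0.38 (0.14 to 0.62). Of the 7 members with at least 20 UMIs, 0 passed 2-fold, where 13.3% of 7070 genes did in either direction. The progenitor and neuron markers that named the class summed to 20169 CPM in CT versus 15896 CPM in Opa1 cKO, and the mature neuron markers to 276 and 366 CPM. Markers of the NSC pool, whose own class held the least Egr1, summed to 5548 CPM in CT versus 8920 CPM in Opa1 cKO. The part of these markers in the differences of Egr1 and of the sum was not tested. Cells of this class without a YFP UMI (86 CT and 56 Opa1 cKO cells), classed with no YFP filter, did not show these differences. Their Egr1 was at 737 and 755 CPM, a log2 ratio of 0.03 (-0.36 to 0.42). Their sum had a log2 ratio of 0.39 (0.24 to 0.53). Clustered without the members, other stress genes and mt- genes, the class held 151 CT and 309 Opa1 cKO cells. The log2 ratio of the sum was then -0.56.

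Endothelial-like and oligodendrocyte-like cells had sums whose counting intervals for the ratio reach 0. The endothelial-like sum had a log2 ratio of 0.08 (-0.01 to 0.17) over 55 CT and 89 Opa1 cKO cells, and 0 of the 10 members passed 2-fold, where 12% of 5302 genes did. Globin genes were among the genes that led this cluster, and without cells of at least 2 globin or microglia UMIs the log2 ratio was 0.14 (0.04 to 0.23). Erythroid markers summed to 42.9 CPM in CT versus 27701 CPM in Opa1 cKO. Mural markers, at 16939 and 14490.5 CPM, stood near the endothelial markers, at 16712 and 16100 CPM. The part of these other markers in the high level of the class was not tested. The oligodendrocyte-like sum had a log2 ratio of -0.06 (-0.22 to 0.09) over 74 and 101 cells. Of its 7 members with at least 20 UMIs, Ier2, with 8 and 32 UMIs, was at least 2-fold higher, where 5% of 4838 genes were, and Egr1, with 17 and 12 UMIs, at least 2-fold lower, where 6.24% were.

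The mt- share was then used to compare NSC pool-like cells at like values. In Opa1 cKO, 1574 of these cells had under 1% mt- UMIs, 556 had 1% to under 5% and 453 had 5% to under 20%. In CT the numbers were 3, 625 and 750 cells. At 1% to under 5%, the sum was 919.8 CPM in CT (873 to 968) and 1142 CPM in Opa1 cKO (1092 to 1193), for a log2 ratio of 0.31 (0.21 to 0.41). At 5% to under 20% it was 743 CPM in CT (708 to 780) and 699 CPM in Opa1 cKO (658 to 743), for a log2 ratio of -0.09 (-0.20 to 0.02). Without Jund these log2 ratios were 0.24 (0.11 to 0.36) and -0.19 (-0.34 to -0.05). The cells under 1%, nearly all from Opa1 cKO, stood between these at 843 CPM (819 to 869). Within Opa1 cKO their log2 ratio over the 5% to under 20% group was 0.27 (0.17 to 0.37), and over the 1% to under 5% group -0.44 (-0.51 to -0.36). All genes had medians of 0.29 and 0.10 in these comparisons, so that the first value is no larger than that shift. Between the genotypes they had medians of -0.02 at 1% to under 5% and of -0.13 at 5% to under 20%.

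The middle group thus had the highest sum in both genotypes, although CT had only 3 cells under 1% and so no value there. In CT its log2 ratio over the 5% to under 20% group was 0.31 (0.20 to 0.41), and in Opa1 cKO 0.71 (0.60 to 0.82). All genes had medians of 0.09 and 0.19 in these comparisons. In CT, Egr1 went the other way at -1.65 (-3.22 to -0.33), with 6 UMIs in the middle group and 26 in the highest. Ier2 did so too, at -0.77 (-1.46 to -0.11), while all other members were above 0. Fos in Opa1 cKO was at 142 CPM under 1%, 253 CPM at 1% to under 5% and 102 CPM at 5% to under 20%. In CT it was at 175.0 and 142 CPM in the last 2 of these groups, so that its log2 ratio between genotypes was 0.53 (0.31 to 0.75) in the middle and -0.47 (-0.76 to -0.19) in the highest group. Junb was also highest in the middle group of Opa1 cKO, at 112 CPM, against 60.8 CPM under 1% and 55.1 CPM at 5% to under 20%. Between genotypes, Egr1 had a log2 ratio of 2.19 (0.90 to 3.74) in the middle group, from 6 CT and 30 Opa1 cKO UMIs. Ier2 had one of -1.26 (-2.08 to -0.50) in the highest group. At least 2 UMIs of microglia markers were found in 32 of the 556 cells of this middle group in Opa1 cKO, 5.76% (3.97 to 8.03), and in 15 of the 625 in CT, 2.40% (1.35 to 3.93). In Opa1 cKO this share was 8.26% under 1% mt- and 3.31% at 5% to under 20%. Without cells of at least 2 microglia or globin UMIs the log2 ratio between the genotypes in the middle group was 0.29 in place of 0.31. Nr4a1 was lower in Opa1 cKO than in CT within both shared groups, with log2 ratios of -1.40 (-2.63 to -0.28) and -2.55 (-5.71 to -0.47). The first rests on 24 CT and 10 Opa1 cKO UMIs. The second rests on 17 and 2 UMIs, so its Opa1 cKO count is under the floor of 3. Dusp1 had a log2 ratio of -0.42 (-0.72 to -0.12) at 1% to under 5% and of -0.22 (-0.56 to 0.11) at 5% to under 20%. Jund at 0.44 (0.27 to 0.60) and Junb at 0.65 (0.31 to 1.00) stood above 0 at 1% to under 5%. At 5% to under 20% they were at 0.07 (-0.11 to 0.24) and 0.20 (-0.23 to 0.63). Jun had intervals that span 0 in both groups, at 0.19 (-0.05 to 0.44) and 0.16 (-0.10 to 0.43). Klf4 was at -1.31 (-2.72 to -0.03) and, from 5 and 2 UMIs, at -0.78 (-4.18 to 1.83).

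**Figure D3:**
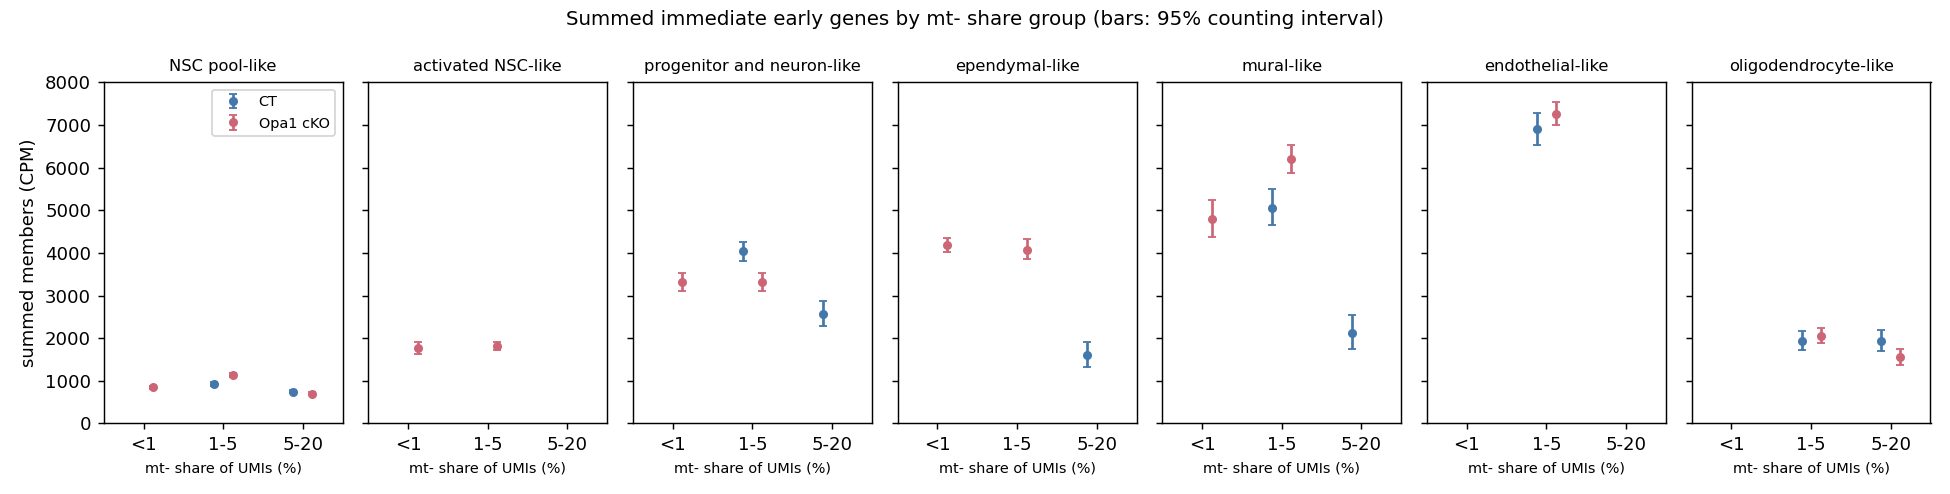
Summed immediate early genes in CPM by mt- share of a cell's UMIs (horizontal axis, under 1%, 1% to under 5% and 5% to under 20%), class (panel) and library (colour), with 95% counting intervals. Groups under 20 cells are left out. NSC pool-like cells lie between 699 and 1142 CPM in every group, whereas endothelial-like cells at 1% to under 5% lie at 6895 and 7266 CPM.

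To compare single cells at equal depth, 1500 UMIs were drawn from each cell and cells with fewer were dropped, which kept 1284 of 1378 CT and 2382 of 2583 Opa1 cKO NSC pool-like cells. At this depth 44.5% of CT (41.7 to 47.2) and 38.2% of Opa1 cKO NSC pool-like cells (36.3 to 40.2) had no UMI of any member. Without thinning the shares were 29.2% and 18.6%. Jund, found in 33.7% of CT cells (31.1 to 36.4) and 39.8% of Opa1 cKO cells (37.8 to 41.7), was found most often. Without it, 35.4% of CT and 39.5% of Opa1 cKO cells had a UMI of any other member. Fos was found in 11.4% (9.69 to 13.2) and 13.1% (11.8 to 14.5), and Jun in 15.1% (13.2 to 17.2) and 19.1% (17.5 to 20.7). Nr4a1 was found in 20 of the 1284 CT cells and in 9 of the 2382 Opa1 cKO cells, 1.56% (0.954 to 2.40) and 0.378% (0.173 to 0.716). None of these genes has a class known to lack it, so no share here measures the free RNA of the suspension. For Klf4 the oligodendrocyte-like cells come closest, with 0 of 74 CT cells and 0 of 101 Opa1 cKO cells after thinning (a floor of 3 counts allows up to 4.05% and 2.97%, and the exact 95% interval up to 4.86% and 3.59%), against 33.3% and 32.6% of endothelial-like cells.

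The UMIs were concentrated in few NSC pool-like cells. Before thinning, the 1% of cells with the most member UMIs (14 in CT, 26 in Opa1 cKO) held 18.3% of them in CT and 10.5% in Opa1 cKO, and a single CT cell held 145. Without these cells the log2 ratio of the sum was 0.23 in place of 0.11, and that of Fos 0.17 in place of 0.02. Both lie outside the counting intervals of the main values, which leave out the spread between cells. After thinning, at least 10 member UMIs were found in 12 CT cells, 0.935% (0.484 to 1.63), and in 42 Opa1 cKO cells, 1.76% (1.27 to 2.38). At least 20 were found in 5 CT cells and in 3 Opa1 cKO cells. The intervals of both shares overlap between the genotypes. At 1% to under 5% mt- share, the share with at least 10 was 0.686% in CT (0.187 to 1.75) and 3.55% in Opa1 cKO (2.12 to 5.55), and at 5% to under 20% it was 1.15% and 0.698%.

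The cells of at least 10 member UMIs carried Fos above all. In them Fos stood at 4911 CPM in CT versus 4629 CPM in Opa1 cKO, where the other thinned cells had 105 and 102 CPM. Their choice used the members, so these values only describe them. Genes outside the choice were Btg2, an antiproliferative early response gene, at 299 CPM in CT versus 433 CPM in Opa1 cKO (40.6 and 25.9 CPM in the other cells), and Zfp36, which degrades AU-rich RNAs, at 74.8 and 124 CPM (4.70 and 4.78 CPM in the other cells). The CT value of Zfp36 rests on 3 UMIs in 12 cells. The heat shock gene Hspa1a had 0 UMIs in these cells of either genotype, with counting intervals up to 92.0 and 38.0 CPM. The other cells had 6.91 CPM in CT versus 4.66 CPM in Opa1 cKO, which lie within those intervals. These counts thus cannot tell whether Hspa1a differed in the cells of at least 10 member UMIs. Aldoc, a marker of the NSC pool, was at 6556 and 7650 CPM in them against 9110 and 9845 CPM. At least 2 UMIs of microglia markers were found in 0% of them in CT and 7.14% in Opa1 cKO, against 2.28% and 7.35% of the other cells.

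Other members were found more often in NSC pool-like cells with a Fos UMI than in those without. At 1500 UMIs per cell, Junb was found in 16.4% of the 146 CT cells with Fos (10.8 to 23.5) and in 2.99% of the 1138 without (2.08 to 4.15). In Opa1 cKO these shares were 27.2% of 312 cells (22.4 to 32.5) and 3.91% of 2070 (3.12 to 4.84). Dusp1 was found in 25.3% and 10.5% in CT, and in 22.8% and 8.94% in Opa1 cKO. Jund differed less, at 43.8% and 32.4% in CT and at 49.0% and 38.4% in Opa1 cKO. Jun was found in 26.7% and 13.6% in CT, and in 29.5% and 17.5% in Opa1 cKO. Junb, Dusp1 and Jun were thus each found more often beside Fos in either library. This is a description within each library and not a comparison of genotypes. Whether Junb and Dusp1 shared cells with each other was not counted.

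**Figure D4:**
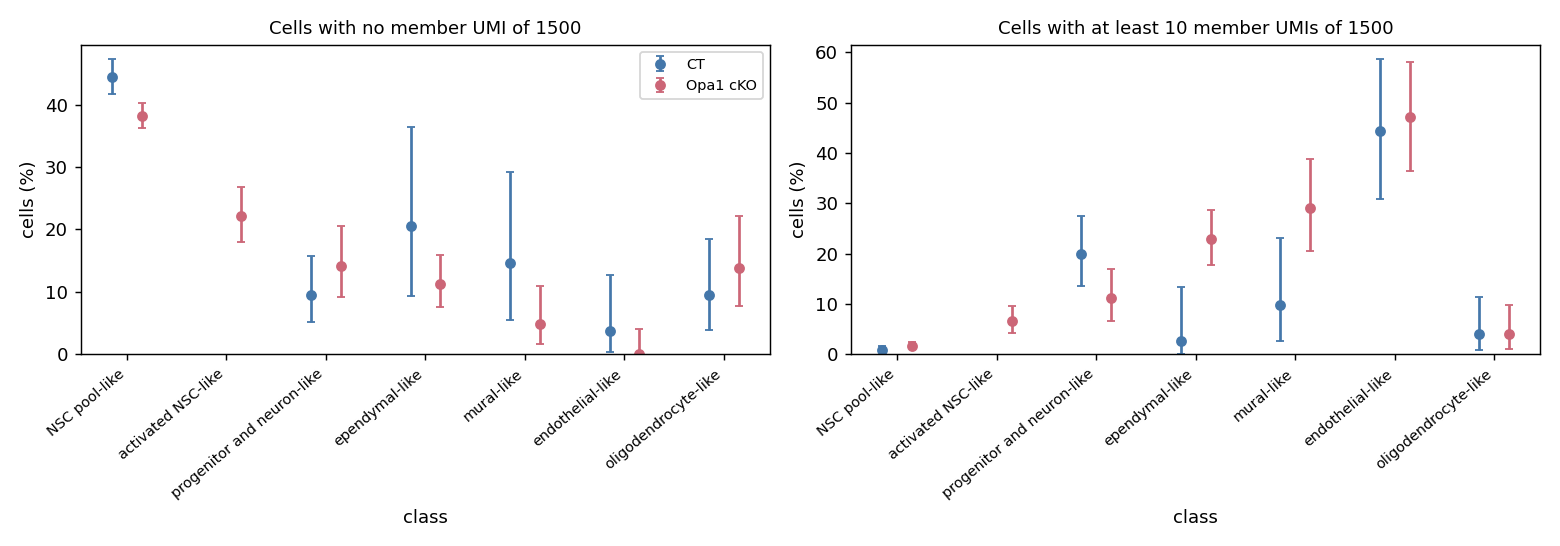
Share of cells, in percent, with no immediate early gene UMI (left) and with at least 10 (right) after thinning each cell to 1500 UMIs, by class and library, with exact binomial 95% intervals. NSC pool-like cells had the largest share without a UMI, at 44.5% in CT and 38.2% in Opa1 cKO. Ependymal-like cells with at least 10 made up 2.56% in CT and 22.9% in Opa1 cKO.

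The same measure set the classes apart. Cells of at least 10 member UMIs made up 44.4% of endothelial-like cells in CT (24 of 54) and 47.2% in Opa1 cKO (42 of 89). They were 1 of 39 ependymal-like cells in CT, 2.56% (0.0649 to 13.5), and 55 of 240 in Opa1 cKO, 22.9% (17.8 to 28.8). In progenitor and neuron-like cells they made up 19.9% in CT (13.5 to 27.6) and 11.1% in Opa1 cKO (6.72 to 17.0), with overlapping intervals. Ependymal-like cells of Opa1 cKO also held Fos together with other members, since Junb was found in 51.7% of the 120 with Fos and in 8.33% of the 120 without.

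The activated NSC-like class depended on how cells were clustered. In the clustering of all cells its 11 CT cells held 303 member UMIs, 10204 CPM, of which Fos gave 116, and 409 Opa1 cKO cells held 1828 CPM. In the second clustering, of lineage cells alone, it had 47 CT cells at 7211 CPM and 294 Opa1 cKO cells at 2798 CPM, and the NSC pool-like sums fell to 666 and 824 CPM. Clustered without the members, other stress genes and mt- genes, no activated NSC-like class formed. No difference between genotypes is read from this class.

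The other genes of the pathway, in lists chosen for this account, were then set beside the members in NSC pool-like cells. Of 33 other immediate early genes, 22 had at least 20 UMIs, and 4 were at least 2-fold higher and 2 at least 2-fold lower in Opa1 cKO, beside 3.99% and 3.8% of all 11298 genes. Their median log2 ratio was 0.17. The highest were Atf3, a stress-induced bZIP factor, at 2.83 (0.86 to 5.94), and Socs3, a feedback inhibitor of cytokine signals, at 2.25 (1.05 to 3.75). Klf10, a TGF-beta response gene, followed at 1.80 (0.84 to 2.91), and all were at under 10 CPM. Atf3 had 2 UMIs in the 1272 thinned CT cells of under 10 member UMIs, and 27 UMIs in the 2340 of Opa1 cKO. Genes this low can pass the limit of 20 UMIs through Opa1 cKO alone, so their place in the count only describes them. The lowest were Nr4a2 at -1.81 (-3.19 to -0.49), Per1, a clock gene, at -1.65 (-2.02 to -1.28) and Homer1, a synaptic scaffold gene, at -0.88 (-1.44 to -0.31). Nr4a2, the paralog of Nr4a1, was at 3.71 CPM in CT versus 1.06 CPM in Opa1 cKO.

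Heat shock genes had 1 of 10 at least 2-fold higher (Hspb1, with 4 and 20 UMIs) and 0 lower, beside the same 3.99% and 3.8%, with a median of 0.33. Their highest log2 ratios were those of Hspb1 at 1.15, Hspd1, a mitochondrial chaperone, at 0.83 (0.66 to 0.99) and Hspa8, the constitutive Hsp70, at 0.72 (0.66 to 0.79). Their lowest were those of Hspa1a, the inducible Hsp70, at -0.62 (-1.38 to 0.16), Hsph1 at -0.42 and Dnajb1 at -0.33. The MAPK feedback genes, which MAP kinase signals induce, had 0 of 5 past 2-fold, beside 7.79% of all genes in either direction, and a median of -0.17. Spry2, a receptor tyrosine kinase inhibitor, was the most abundant, at 651 and 501 CPM, with a log2 ratio of -0.38 (-0.45 to -0.31). Spry4 was at -0.66 and Dusp6 at -0.17, while Spred2 at 0.14 and Spred1 at -0.02 stood highest.

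Upstream kinases and factors had 0 of 13 past 2-fold, beside the same 7.79%, and a median of -0.12. The highest were Elk3 at 0.46, Mapk9 at 0.37 and Mapk3, which encodes ERK1, at 0.28. The lowest were Mapk8, which encodes JNK1, at -0.82 (-1.13 to -0.50), Creb1 at -0.72 (-1.14 to -0.30) and Elk4 at -0.55 (-1.10 to 0.01). In contrast, 5 of the 6 integrated stress response genes taken from the paper, which named them from these samples, were at least 2-fold higher, beside 3.99% of all genes, with a median of 1.71. Chac1, a glutathione-degrading enzyme, had a log2 ratio of 6.81 from 2 and 504 UMIs, Ddit3, which encodes CHOP, of 2.78 from 187 and 2889 UMIs and Slc3a2 of 1.98 (1.91 to 2.05). The lowest were Atf4 at 1.44, Slc7a11 at 1.44 and Ddit4 at 0.13. The list was chosen on these samples and is not independent evidence of its direction.

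**Figure D5:**
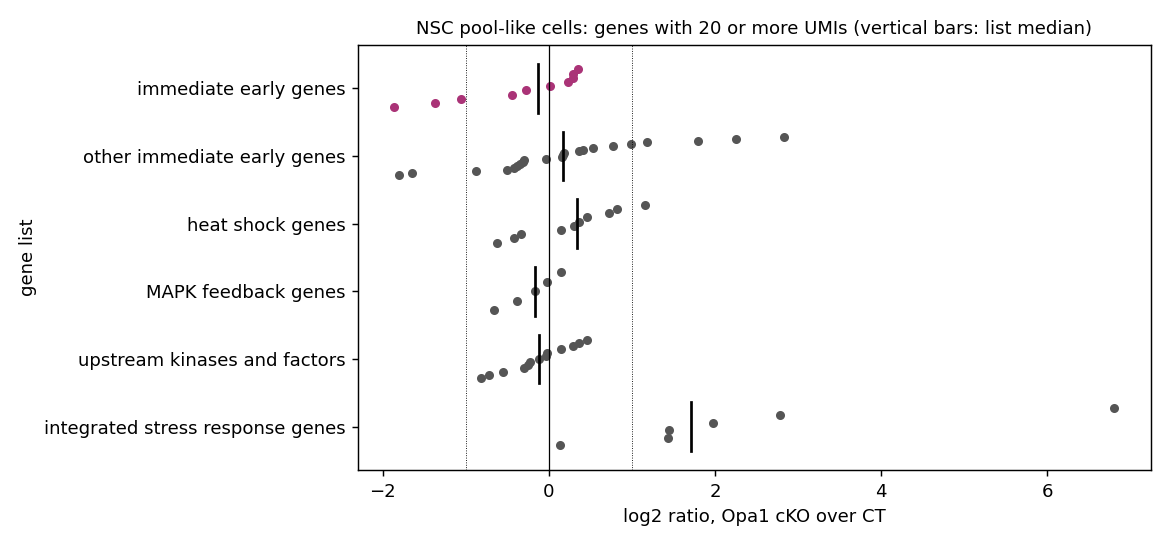
Log2 ratio of Opa1 cKO over CT in NSC pool-like cells for each gene with at least 20 UMIs (points) in each gene list (rows), with vertical bars at the list median and dotted lines at 2-fold. The immediate early genes followed here lie between -1.86 and 0.36, with a median of -0.13, while the integrated stress response genes have a median of 1.71.

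The genes whose level was most like the summed members over classes were looked for among 588 other genes with at least 20 UMIs in each of 13 values, 1 for each class and library of at least 30 cells. On the log2(CPM + 10) scale the highest Pearson correlations were those of Myl12a at 0.87, Gnas at 0.87, Hnrnpf at 0.85, Tpt1 at 0.84 and Snrpb at 0.84. Myl12a, a myosin light chain, went from 55.6 CPM in CT NSC pool-like cells to 1415 CPM in Opa1 cKO endothelial-like cells. The 13 values share 2 libraries and their classes, so these correlations are descriptions only.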

How the data were processed

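Hippocampal YFP+ cells of CT and Opa1 cKO mice were measured in 1 library each (2 samples, grouped by their titles). The deposited values are UMI counts per gene and cell barcode, made by the authors with Cell Ranger on mm10 and not normalized. The submitters' processing notes give version 2.1.1 and the matrix headers 3.1.0. The annotation used for counting is not given in the sources used here. Depth was 10799936 UMIs over 4634 barcodes for CT, and 18662032 UMIs over 6475 barcodes for Opa1 cKO.

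Cells with over 600 and under 7500 genes and under 20% mt- UMIs were kept, limits taken from the study's methods. Its further condition of detectable YFP expression was read as at least 1 YFP UMI, which left 1790 of 4186 CT and 3764 of 6121 Opa1 cKO cells. The study states larger cell numbers, close to those before the YFP step, so this reading does not give its set of cells. SCTransform normalization preceded clustering with Seurat 5.3.0 (sctransform 0.4.2, R 4.3.3) on 8 dimensions at a resolution of 0.2, and, for lineage cells, on 12 dimensions at 0.1. Each cluster was given the type whose markers were most numerous in its top 50 genes by fold over other cells (10 CPM added), with at least 3 there and 33.3% of that type's markers past a log2 fold of 1. Clusters left without a name were then compared with the named clusters by the share of markers past that fold. This form of the rule was set after the clusters had been seen.

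UMIs were summed per library and class. CPM values have exact Poisson intervals, shares Clopper-Pearson intervals, and the interval of a log2 ratio treats how both counts divide as binomial. All are 95% intervals of counting error only, and those of CPM and of ratios treat UMIs as independent. A count of 0 was set to a floor of 3 counts per library and class, and genes at or under it in both have no ratio. Groups under 20 cells were given no ratio. Genes with at least 20 UMIs over both libraries form the background, so a gene low in 1 library can pass through the other alone. The ratio intervals were tried on simulated counts drawn independently from the class sums, as the intervals themselves assume. Those draws leave out the concentration of UMIs in few cells, so they cannot show how the intervals hold on the real counts. Named from the other lists are the 3 highest and 3 lowest log2 ratios, and by likeness the 5 most correlated genes. The members and lists were chosen with earlier results of these data known. Doublets were not removed in the main values. Scrublet (scanpy 1.11.5) marked 8 CT cells and 1 Opa1 cKO cell, too few to count as working. Alternatives to the filters, classes, denominators and thinning were run, and 2 were added after the data were seen, namely leaving out the 1% of cells with most member UMIs and leaving out Jund. Promoter sequences came from RefSeq (GRCm38.p6) and coordinates from GENCODE M21. Python 3.11.15, numpy 2.4.6, scipy 1.17.1, pandas 2.3.3 and matplotlib 3.10.9 were used.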

Additional observations from a re-analysis of the deposited data

Results flagged for a closer look

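The summed members differed in direction between classes by counting intervals alone, with a log2 ratio of Opa1 cKO over CT of 0.11 in NSC pool-like, 1.12 in ependymal-like and 0.67 in mural-like cells, but of -0.17 in progenitor and neuron-like cells. With 1 library per genotype the difference between these classes was not tested.

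Cells without a YFP UMI, which the comparisons above leave out, were classed together with the others when the YFP filter was dropped. Among them the sum was above that of CT beyond counting error in 5 classes. The log2 ratio was 0.40 in NSC pool-like cells (541 CPM over 1824 CT and 714 CPM over 1490 Opa1 cKO cells) and 0.65 in ependymal-like cells (2493 CPM over 55 and 3903 CPM over 270 cells). In progenitor and neuron-like cells it was 0.39, opposite in direction to the -0.17 of those with a YFP UMI. It was 0.22 in mural-like and 0.21 in oligodendrocyte-like cells. Endothelial-like cells without a YFP UMI went the other way, with a log2 ratio of -0.15 (-0.21 to -0.08). A cell without a YFP UMI had still passed the sort for YFP signal, so that absence of the UMI does not show absence of the reporter.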

How the results depend on the processing

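The 15 alternatives left 98 of the 128 recomputed values within the main value's counting interval. No ratio whose main interval excluded 0 passed to an interval on the other side of 0. The ratio between genotypes in the highest mt- share group, whose main interval spans 0, did take values on either side of 0. The summed members in NSC pool-like cells had a main log2 ratio of 0.11. It was 0.26 with cells weighted equally, 0.21 when clustered without the members, other stress genes and mt- genes, and 0.31 in the lineage classes. It was 0.37 with no YFP filter, 0.18 thinned to 1500 UMIs, 0.23 without the 1% of cells with most member UMIs and -0.018 without Jund. The middle mt- share group (main 0.31) gave 0.46 with cells weighted equally, 0.51 when clustered without these genes, 0.44 thinned and 0.19 with no YFP filter. The highest group (main -0.09) gave 0.25 in the lineage classes, 0.20 with no YFP filter and 0.20 without the top 1% of cells, but -0.19 (-0.34 to -0.05) without Jund. The lowest over the highest group of Opa1 cKO (main 0.27) gave 0.17 without mt- genes and members in the denominator, 0.40 thinned and 0.50 with no YFP filter. Mural-like cells (main 0.67) gave 0.51 with cells weighted equally, 0.37 with no YFP filter and 1.21 thinned, where 53 of 94 CT cells were left out. Ependymal-like cells (main 1.12) gave 0.85 with no YFP filter and 1.55 without Jund. Progenitor and neuron-like cells (main -0.17) gave -0.56 when clustered without these genes, which moved their number from 169 to 309 in Opa1 cKO. Endothelial-like cells gave -0.064 with no YFP filter, and oligodendrocyte-like cells 0.13 without Jund. With no YFP filter, 1 member in place of 3 was at least 2-fold apart in NSC pool-like cells. Without thinning, 70.8% of CT and 81.4% of Opa1 cKO NSC pool-like cells had a member UMI, and thinned to 1000 UMIs 43.1% and 50.3% had. The causes of these shifts were not tested, apart from the fewer cells named above. Of the values of single members, 20 of 110 moved beyond their interval. Leaving out the top 1% of cells and leaving out Jund were chosen after seeing the data. No paired analysis was possible because each genotype has 1 library, and none can be left out for the same reason. Depth limits Fosb, Klf4, Nr4a1 and Egr1 most.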

Other observations

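In ependymal-like cells the other immediate early genes were also counted. Of 33 in the list, 18 had at least 20 UMIs, and 7 were at least 2-fold higher and 1 at least 2-fold lower in Opa1 cKO, beside 12.9% and 7.25% of all 7060 genes, with a median log2 ratio of 0.39. Btg2, an antiproliferative early response gene, was at 36.5 CPM in CT versus 266 CPM in Opa1 cKO, for a log2 ratio of 2.87 (1.49 to 4.75) from 4 and 253 UMIs. It thus passed the limit of 20 UMIs through Opa1 cKO alone. Zfp36 was at 54.8 and 152 CPM, a log2 ratio of 1.47 (0.31 to 2.94). Klf10 was at 54.8 and 17.9 CPM, a log2 ratio of -1.61 (-3.03 to 0.02). Heat shock genes had a median of -0.06 in the same cells, with Hspb1 at 1.65 (0.39 to 3.29) as the 1 of 10 at least 2-fold higher and 0 at least 2-fold lower, beside the same shares. Genotype and mt- share cannot be told apart for these values either.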
